A study of Mus musculus with 16 samples.

Results

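The 10 genes described here carry calcium and magnesium across the cells of the distal tubule of the mouse kidney or regulate that transport: Trpm6, Trpm7, Pvalb, Calb1, Trpv5, S100g, Slc8a1, Atp2b1, Cnnm2 and Vdr. They were chosen by name and found by gene symbol, and each of the 10 had 1 row among the 28971 genes of the count table. All 10 passed the filter on low counts, which left 15615 genes for testing. RNA was taken from whole kidneys of mice carrying Pax8-rtTA, TRE-Cre and homozygous floxed Hes1 (Hes1 cKO, a conditional knockout) and from wild type littermates (control). Hes1 encodes a transcriptional repressor that acts downstream of Notch receptors. Both groups drank water containing doxycycline (1 mg/mL) and 5% sucrose for 1 week, beginning at 3 weeks of age. The Pax8 promoter drives rtTA in tubule and collecting duct epithelium, so that doxycycline turns on Cre there, while blood vessels and other cells of the kidney keep their Hes1. By their titles, 7 kidneys were Hes1 cKO (4 from females, 3 from males) and 9 were control (3 from females, 6 from males). The series text instead gives 9 Hes1 cKO and 7 control samples, and the titles were followed. The table used held 3 mutant and 4 wild type libraries, whose names do not tie them to a titled kidney or a sex.

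The last part of the nephron sets how much calcium and magnesium leave in the urine. In the late distal convoluted tubule and the connecting tubule, calcium enters the cell through the channel Trpv5, is carried through the cytosol by calbindins, and leaves at the basolateral side through the sodium-calcium exchanger and the plasma membrane calcium pump. Magnesium enters mainly in the early distal convoluted tubule through channels that contain Trpm6. Active vitamin D, acting through its receptor Vdr, is a known regulator of the calcium genes.

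Promoter sequences were available from RefSeq (build GRCm38.p6) for 9 of the 10 genes (all but Calb1), with 11 start sites in all, and were searched for letters described as binding sites of Hes family proteins. The 7 windows printed here run from 100 bases before the start site to 30 bases after it and are all those that hold a searched match in that stretch. Capitals mark CACGTG (an E-box), CACNAG (an N-box) or CACGCG, each on either strand, or TATAAA, and no matches overlapped.
Trpm6, chr19:18749630-18749759, plus strand: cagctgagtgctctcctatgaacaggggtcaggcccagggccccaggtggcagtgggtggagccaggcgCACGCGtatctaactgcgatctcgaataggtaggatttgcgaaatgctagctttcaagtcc
Trpm7, chr2:126876232-126876361, minus strand: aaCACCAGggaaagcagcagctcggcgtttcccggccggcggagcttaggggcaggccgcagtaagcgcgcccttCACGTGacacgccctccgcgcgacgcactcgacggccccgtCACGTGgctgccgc
Pvalb, chr15:78206371-78206500, minus strand: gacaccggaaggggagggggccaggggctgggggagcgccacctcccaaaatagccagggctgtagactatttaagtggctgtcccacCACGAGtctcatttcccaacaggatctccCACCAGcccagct
Trpv5, chr6:41680694-41680823, minus strand: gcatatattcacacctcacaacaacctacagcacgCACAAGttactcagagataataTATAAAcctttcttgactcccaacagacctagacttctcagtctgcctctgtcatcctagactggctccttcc
S100g, chrX:162964570-162964699, minus strand: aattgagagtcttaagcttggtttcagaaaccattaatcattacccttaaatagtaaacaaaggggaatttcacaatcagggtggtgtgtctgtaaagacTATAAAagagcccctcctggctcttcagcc
Atp2b1 (first start site), chr10:98914542-98914671, plus strand: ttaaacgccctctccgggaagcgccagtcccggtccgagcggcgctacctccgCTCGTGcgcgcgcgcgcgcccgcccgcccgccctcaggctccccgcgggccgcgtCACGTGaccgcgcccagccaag
Atp2b1 (second start site), chr10:98915052-98915181, plus strand: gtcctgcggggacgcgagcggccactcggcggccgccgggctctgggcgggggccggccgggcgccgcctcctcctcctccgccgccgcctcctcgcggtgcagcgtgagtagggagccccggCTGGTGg

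Over the full windows of 300 bases (250 before the start and 50 after), CACGTG was found in 2 of the 11 promoters, those of Trpm7 and Atp2b1, against 7.15% of 32851 promoters of all genes. CACGCG was found in 2 (Trpm6 and Cnnm2), against 9.27%, and CACNAG in 8, against 42.5%. TATAAA was found in the promoters of Trpv5 and S100g, against 13.6% of all. The direct repeat known as DR3 is the classical vitamin D response element, bound by Vdr with its partner Rxra. Searched by its letters, with 3 spacer bases, it was in none of the 11 windows and in 13 of 32851 windows (0.0396%). Letters this rare would be missing from nearly any 11 windows, and sites with other letters were not searched. Whether these promoters hold a vitamin D response element therefore cannot be told from this search. A match of letters describes the sequence and does not show binding.

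Total counts ranged from 16973931 to 20420422 per library. Hes1 itself lay at 17.2 to 19.8 CPM (TMM-scaled read counts per 1e6 reads) in the 3 Hes1 cKO libraries and at 42.8 to 67.6 CPM in the 4 controls, and these ranges do not overlap. Which exons are floxed is not stated in the labels, and counts can include exons that remain. Slc12a3, the sodium-chloride cotransporter that defines the distal convoluted tubule, was at 629 to 680 CPM in Hes1 cKO and 635 to 850 CPM in control. Each column name carries its own number, but neither labels nor column names state that every library comes from a separate animal. P-values measure only the spread between these 7 libraries.

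Levels per length were compared first, as CPM per kilobase of merged exon in control (SD, n = 4). S100g, the small calbindin-D9k, was by far the highest of the 10 at 853 ± 206. Calb1, calbindin-D28k, followed at 85.5 ± 17.4, and Vdr at 31.4 ± 1.60. Pvalb, the calcium-binding protein parvalbumin of the early distal convoluted tubule, was at 19.5 ± 7.81. Its control libraries, from 9.81 to 28.0, overlapped those of Cnnm2 (10.5 to 13.7), and Cnnm2 overlapped Trpm7 (9.55 to 11.6). These 3 neighbours therefore have no order beyond their spread. Further down, Slc8a1 (5.62 to 7.47) overlapped both Atp2b1 (7.05 to 8.52) and Trpv5 (4.42 to 6.72). Trpm6 was lowest at 1.35 ± 0.255, below every control library of the other 9 genes. In the Hes1 cKO libraries S100g was again highest (535 to 731) and Trpm6 lowest (0.955 to 1.46).

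**Figure D1:**
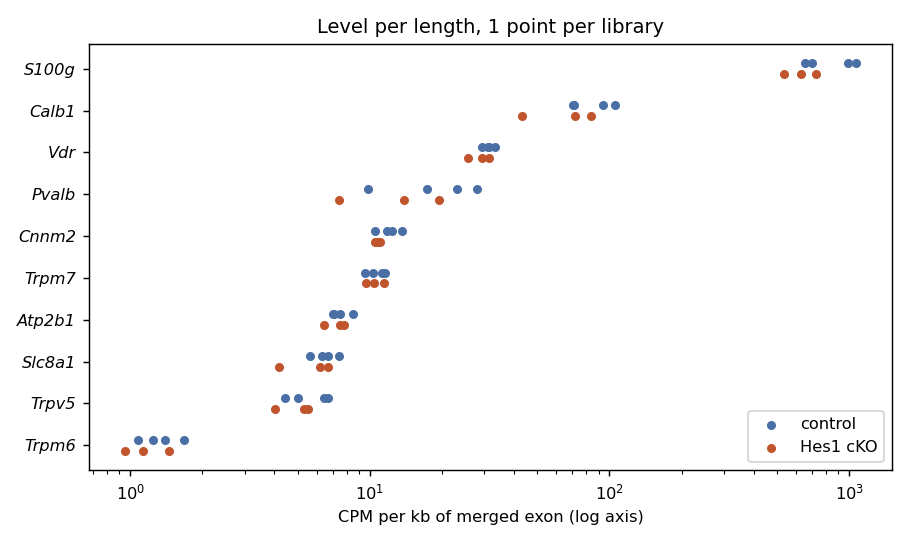
Level of the 10 genes as CPM per kilobase of merged exon (log axis), 1 point per library, control in blue and Hes1 cKO in orange. S100g lies highest, at 535 to 1068, and Trpm6 lowest, at 0.955 to 1.68.

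Against control, none of the 10 genes was called in Hes1 cKO by edgeR's quasi-likelihood test at an adjusted p under 0.05, a threshold that 0.339% of all tested genes passed. By DESeq2's Wald test and by limma-voom 0 of the 10 were called too, with 0.716% and 0.327% of genes called overall. All 10 log2 fold changes were below 0, as were those of 51.6% of all tested genes. Their median was -0.19, and that of all tested genes was -0.0064. The ranges of the groups overlapped for all 10, while 7.01% of all tested genes had groups that did not overlap. At an unadjusted p under 0.05 there was 1 of the 10, S100g, against 5.95% of all tested genes in either direction and 2.61% in the lower direction. In whole kidney RNA, fewer cells of a type and less RNA per cell cannot be told apart.

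**Figure D2:**
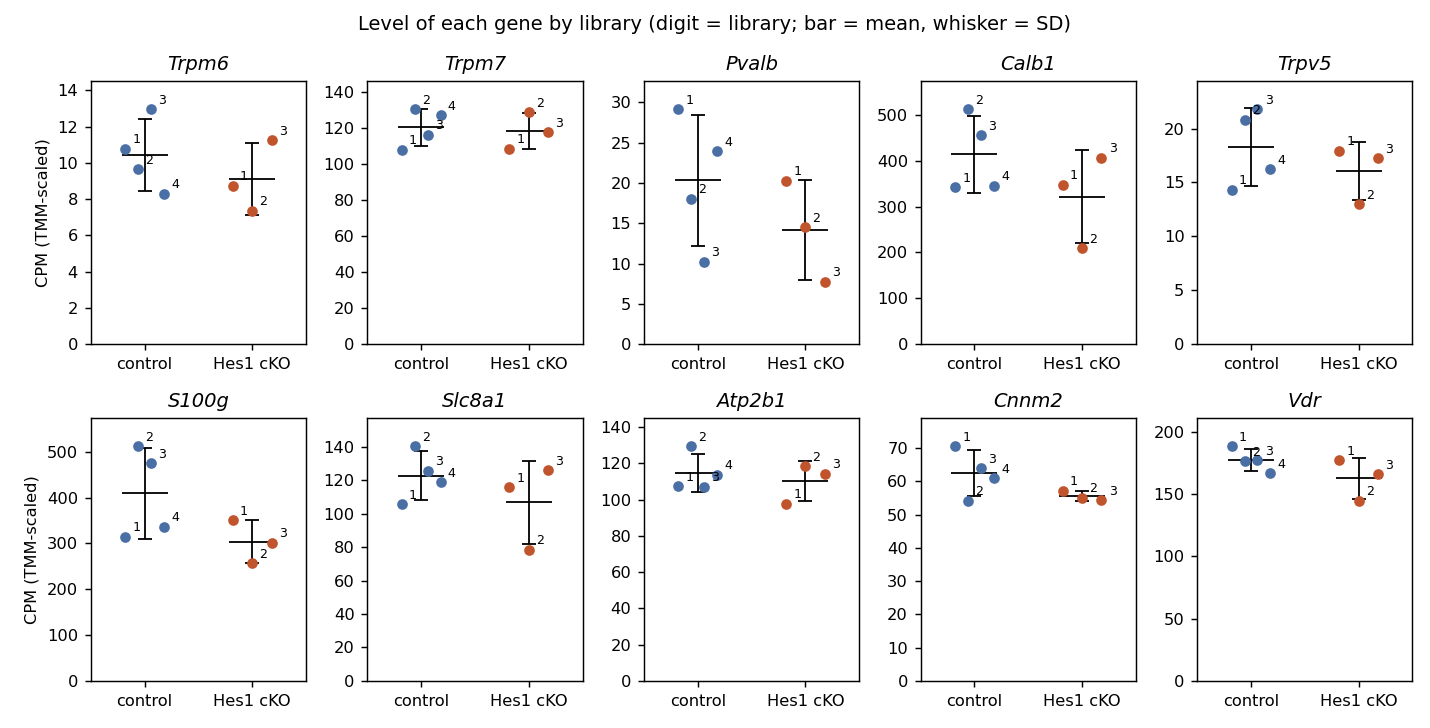
CPM of each of the 10 genes in the 4 control and 3 Hes1 cKO libraries, 1 point per library with its number, with the mean and SD of each group. The groups overlap in every panel, and Hes1 cKO 2 is lowest for Trpm6, Calb1, Trpv5, S100g, Slc8a1 and Vdr.

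Calcium entry was read from Trpv5 (ENSMUSG00000036899, chr6:41652173-41680769), the apical calcium channel. It was at 17.9, 13.01 and 17.2 CPM in Hes1 cKO 1, 2 and 3, and at 14.3, 20.8, 21.8 and 16.2 CPM in control 1, 2, 3 and 4. Hes1 cKO 2 was lowest and the other Hes1 cKO libraries lay inside the control range, above control 1 and control 4. The log2 fold change was -0.19 (SE 0.18, adjusted p 0.962 by edgeR), with a 95% interval of the ratio to control from 0.667 to 1.15. This log2 fold change was -0.057 without Hes1 cKO 2, -0.094 without control 3, -0.12 without control 2 and -0.29 without control 1.

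The calbindin genes S100g and Calb1 were the most abundant of the 10 and had large estimated differences. S100g (ENSMUSG00000040808, chrX:162961992-162964599) was at 351, 257 and 302 CPM in Hes1 cKO 1, 2 and 3, and at 314, 512, 475 and 336 CPM in control 1, 2, 3 and 4. Of the Hes1 cKO libraries, 2 lay below every control, while Hes1 cKO 1 lay above control 1 and control 4. The means were 303 ± 47.1 CPM (SD, n = 3) and 409 ± 98.96 CPM (SD, n = 4), and the log2 fold change was -0.43 (SE 0.19). Its unadjusted p was 0.0449, its adjusted p 0.821 by edgeR and its exact two-sided permutation p 0.229. The interval of the ratio ran from 0.553 to 0.992.

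Calb1 (ENSMUSG00000028222, chr4:15881264-15908064), which ferries calcium through connecting tubule cells, was at 348, 209 and 407 CPM in Hes1 cKO 1, 2 and 3. In control 1, 2, 3 and 4 it was at 342, 512, 456 and 346 CPM. Only Hes1 cKO 2 lay below the controls. The log2 fold change was -0.37 (SE 0.23, adjusted p 0.938 by edgeR). It was -0.14 without Hes1 cKO 2 (adjusted p 0.9997 by edgeR) and -0.57 without Hes1 cKO 3 (adjusted p 0.654 by edgeR).

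Calcium exit was read from the exchanger gene Slc8a1 and the pump gene Atp2b1. Slc8a1 (ENSMUSG00000054640, chr17:81373105-81738377) was at 116, 78.4 and 126 CPM in Hes1 cKO 1, 2 and 3, and at 106, 140.5, 126 and 119 CPM in control 1, 2, 3 and 4. Again Hes1 cKO 2 alone lay below the controls. The log2 fold change was -0.20 (SE 0.16, adjusted p 0.959 by edgeR) and -0.022 without that library. It was -0.13 without control 2 and -0.34 without Hes1 cKO 3 (adjusted p 0.718 by edgeR). An opposite-strand gene, AC122399.1, shares 296 of the 18807 exon bases of Slc8a1, and whether the counting used strand was not stated in those sources that were used.

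Atp2b1 (ENSMUSG00000019943, chr10:98914406-99026143), a calcium pump found in many cell types, was at 97.7, 119 and 114 CPM in Hes1 cKO 1, 2 and 3. The controls 1, 2, 3 and 4 were at 107, 129.6, 107 and 114 CPM. Hes1 cKO 1 was lowest and control 2 highest, with the rest intermingled. Its log2 fold change of -0.055 (SE 0.10, adjusted p 0.987 by edgeR) changed sign when Hes1 cKO 1 (0.022) or control 2 (0.0098) was left out. The interval of the ratio was narrow, from 0.820 to 1.13. This is 1 of the pair of genes with CACGTG in the promoter shown above.

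Among the magnesium genes, Trpm6 (ENSMUSG00000024727, chr19:18749983-18892511), the distal tubule channel, was at 8.73, 7.37 and 11.2 CPM in Hes1 cKO 1, 2 and 3. In control 1, 2, 3 and 4 it was at 10.8, 9.64, 12.95 and 8.30 CPM. Hes1 cKO 3 was second only to control 3, and control 4 lay below 2 of the 3 Hes1 cKO libraries. The log2 fold change was -0.20 (SE 0.19, adjusted p 0.973 by edgeR). It was -0.063 without Hes1 cKO 2, -0.073 without control 3 and -0.37 without Hes1 cKO 3 (adjusted p 0.724 by edgeR). With 149 to 236 counts per library, Trpm6 had few counts among the 10, and counting error alone was up to 8.19% of its level. The spread between libraries was larger, at 18.9% of the mean in control and 21.5% in Hes1 cKO.

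Trpm7 (ENSMUSG00000027365, chr2:126791565-126876230), a related channel expressed in many tissues, was at 109, 129 and 118 CPM in Hes1 cKO 1, 2 and 3, and at 108, 130.7, 117 and 127 CPM in control 1, 2, 3 and 4. The groups covered nearly the same range. The log2 fold change was -0.025 (SE 0.098, adjusted p 0.992 by edgeR), with a ratio interval from 0.844 to 1.14. Its sign turned without Hes1 cKO 1 (0.031), control 2 (0.015) or control 4 (0.0021). Its promoter, shown above, holds CACGTG at 25 bases before and at 17 bases after the start.

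Cnnm2 (ENSMUSG00000064105, chr19:46761596-46880192), a basolateral protein needed for magnesium balance, was at 57.2, 55.1 and 54.3 CPM in Hes1 cKO 1, 2 and 3. It was at 70.7, 54.2, 64.0 and 60.9 CPM in control 1, 2, 3 and 4. The Hes1 cKO libraries lay close together, below 3 of the 4 controls and just above control 2. The means were 55.6 ± 1.47 CPM (SD, n = 3) and 62.5 ± 6.86 CPM (SD, n = 4), and the log2 fold change was -0.17 (SE 0.097, adjusted p 0.934 by edgeR), or -0.10 without control 1. The exact permutation p of 0.171 was the smallest among the 10 genes, and the smallest that the 35 splits allow is 0.0286.

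Pvalb (ENSMUSG00000005716, chr15:78191114-78206400) varied most from library to library. It was at 20.3, 14.5 and 7.76 CPM in Hes1 cKO 1, 2 and 3, and at 29.1, 18.1, 10.2 and 23.96 CPM in control 1, 2, 3 and 4. The highest library held 3.75 times the lowest, and the spread in control was 39.98% of the mean. Its log2 fold change of -0.52 was the most negative of the 10, and its standard error of 0.37 was the largest (adjusted p 0.942 by edgeR). The ratio interval ran from 0.390 to 1.25. Leaving out Hes1 cKO 3 moved the log2 fold change to -0.23, leaving out control 1 to -0.29, and leaving out Hes1 cKO 1 to -0.87. Skeletal muscle is rich in parvalbumin. Of 6 muscle markers fixed for this check, Ckm and Tnnt3 had at most 4 counts in any library, Acta1 had at most 8 and Myh4 had no row. Actn3 was at 2.88 to 4.66 CPM in Hes1 cKO and at 1.01 to 2.07 CPM in control. Mylpf was at 0.600 to 1.61 CPM over all libraries. The part of muscle RNA in the Pvalb values was not tested.

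Vdr (ENSMUSG00000022479, chr15:97854425-97910630), the nuclear receptor of active vitamin D, was among the steadiest. It was at 177, 145 and 166 CPM in Hes1 cKO 1, 2 and 3, and at 189, 176, 177 and 167 CPM in control 1, 2, 3 and 4. Hes1 cKO 2 and, by a small margin, Hes1 cKO 3 lay below the controls. The log2 fold change was -0.12 (SE 0.093, adjusted p 0.942 by edgeR), with a ratio interval from 0.794 to 1.06. This log2 fold change was -0.045 without Hes1 cKO 2 and -0.19 without Hes1 cKO 1.

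**Figure D3:**
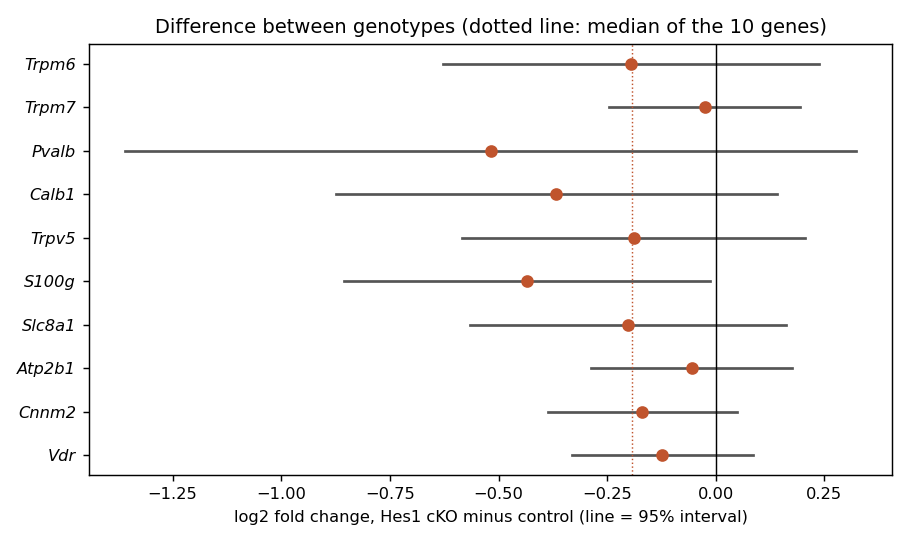
Log2 fold change of each of the 10 genes, Hes1 cKO minus control, with its 95% interval from edgeR and a dotted line at their median of -0.19. Every point lies below 0, and 9 of the 10 intervals include 0; that of S100g ends at -0.012.

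The intervals set what these 7 libraries could show. They were computed gene by gene with no adjustment for the number of genes. For 9 of the 10 genes the 95% interval excluded a level at 0.5 of control, and Pvalb was the exception.

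Calb1, S100g, Trpv5 and Slc8a1 were high and low in much the same libraries. These 4 were not fixed as a set beforehand. By the likeness measure given below, many other genes lay nearer to Trpv5 than the rest of this set did. Relative to the control mean, on the log2(CPM + 1) scale, Calb1, S100g, Trpv5 and Slc8a1 all lay above 0 in control 2 (0.20 to 0.36) and control 3 (0.043 to 0.26). All 4 lay below 0 in control 1 (-0.35 to -0.21) and control 4 (-0.25 to -0.038). In Hes1 cKO 2 they were at -0.96, -0.64, -0.44 and -0.63. Hes1 cKO 1 was nearer to the control mean, from -0.23 to -0.0076. Hes1 cKO 3 was mixed, with S100g at -0.41 and the other three between -0.062 and 0.043. Atp2b1 departed from these 4 in Hes1 cKO 2 (0.054) and control 3 (-0.089). It shared their sign in control 1 (-0.087), control 2 (0.18), control 4 (-0.0057) and Hes1 cKO 1 (-0.22). Over all 10 genes, Hes1 cKO 2 was the lowest library for 6 and control 2 the highest for 5. Without Hes1 cKO 2 the median log2 fold change of the 10 was -0.10, with all 10 below 0.

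Pvalb did not follow the 4 calcium genes. It was highest in control 1, where Calb1, S100g, Trpv5 and Slc8a1 lay below the control mean, and it was 0.84 below the mean in control 3, where they lay above it. Xist, the X-inactivation transcript of female cells, was at 333 to 367 CPM in Hes1 cKO 3, control 3 and control 4 and at up to 0.371 CPM in the other libraries. Libraries with and without Xist were found in both groups, so neither group came from a single animal. With the Xist level as a covariate, edgeR called none of the 10 (0.423% of all genes), and the log2 fold change of Pvalb was -0.69 (adjusted p 0.693 by edgeR).

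**Figure D4:**
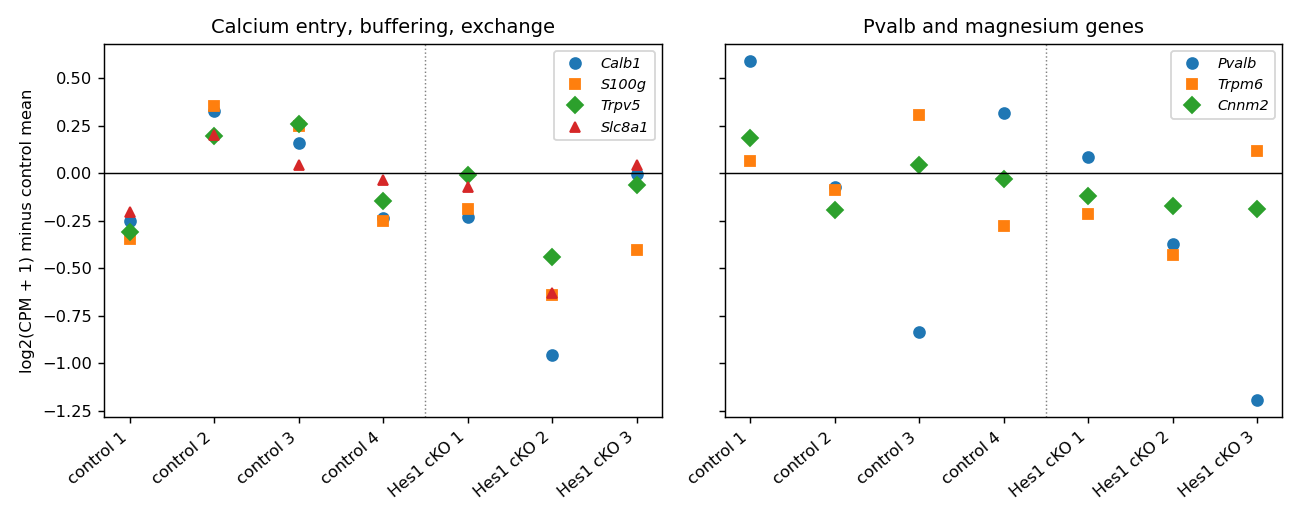
Log2(CPM + 1) of each gene in each library minus its mean over the 4 controls, for 4 calcium genes (left) and for Pvalb, Trpm6 and Cnnm2 (right). The 4 calcium genes sit together above 0 in control 2 and control 3 and reach -0.44 to -0.96 in Hes1 cKO 2, while Pvalb is lowest in control 3 and Hes1 cKO 3.

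Other genes of calcium and magnesium handling were taken from a list of 24, of which 21 were tested, and none was called by edgeR. Their log2 fold changes were below 0 for 11 and above 0 for 10, with a median of -0.042. At an unadjusted p under 0.05 there were 2 in each direction. Of these, Cldn16, a tight junction gene of the thick ascending limb that governs magnesium passage between cells, averaged 12.0 ± 1.29 CPM (SD, n = 3) in Hes1 cKO. In control it averaged 15.7 ± 0.822 CPM (SD, n = 4; adjusted p 0.531 by edgeR). Kl encodes Klotho, the co-receptor of a phosphate-regulating hormone, and is abundant in the distal convoluted tubule. It was at 501 to 511 CPM in Hes1 cKO and 547 to 759 CPM in control, with a log2 fold change of -0.33 (SE 0.11, adjusted p 0.693 by edgeR). The magnesium transporter genes Slc41a1 and Slc41a3 had positive log2 fold changes of 0.23 and 0.49 (adjusted p 0.738 and 0.693 by edgeR). Slc41a1 was at 55.5 to 59.3 CPM in Hes1 cKO and 44.0 to 53.3 CPM in control. Slc41a3 was at 5.34 to 6.76 CPM against 3.73 to 4.99 CPM.

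Markers of the tubule segments that hold the 10 genes were read beside them. Of 8 distal convoluted tubule markers, 7 had a log2 fold change below 0, with a median of -0.18, and none was called. Their summed level was 1740 to 1880 CPM in Hes1 cKO and 1797 to 2241 CPM in control. The potassium channel gene Kcnj10 was at 104 to 112 CPM against 132 to 157 CPM (log2 fold change -0.37, adjusted p 0.287 by edgeR). Of 6 connecting tubule markers, all had a log2 fold change below 0, with a median of -0.32, and Hsd11b2 alone was called, at -1.12 (adjusted p 0.0104 by edgeR). Hsd11b2, which inactivates glucocorticoids in cells that respond to aldosterone, is also expressed by principal cells of the collecting duct, and its call was among the earlier results known when the list was written. The kallikrein gene Klk1, a connecting tubule product, was at 725 to 761 CPM against 793 to 1402 CPM (log2 fold change -0.60, adjusted p 0.538 by edgeR). The summed connecting tubule markers lay at 1450 to 1499 CPM in Hes1 cKO and 1644 to 2638 CPM in control, and Klk1 alone was a large part of these sums. At an unadjusted p under 0.05 by edgeR, 5 of the 6 connecting tubule markers were lower. The same held for 2 of the 8 distal convoluted tubule markers and 3 of the 4 tested principal cell markers, against 2.61% of all tested genes. The remaining principal cell marker, Scnn1a, had a log2 fold change of 0.21. Whether the connecting tubule list tells these cells from principal cells was not tested.

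Neighbouring cell types differed in direction. Of 6 intercalated cell markers 5 were called, all higher in Hes1 cKO, with a list median of 1.30, and 3 of 4 tested principal cell markers had log2 fold changes below 0, with a median of -0.60 and no call. All 6 proximal tubule markers had negative log2 fold changes, from -0.21 to -0.15 with a median of -0.17, and none was called. Their summed level was 7502 to 7824 CPM in Hes1 cKO and 8010 to 10890 CPM in control. The 5 thick ascending limb markers had a median of -0.13 with no call. Smooth muscle and vessel markers, read because Slc8a1 and Atp2b1 are also expressed there, summed to 164 to 268 CPM in Hes1 cKO and 182 to 209 CPM in control, lowest in Hes1 cKO 2. Adrenal markers, a sign of attached tissue, summed to 828 CPM in Hes1 cKO 3, 653 CPM in control 1, 164 CPM in control 2 and 38.9 CPM in Hes1 cKO 1, and to at most 4.15 CPM in the other libraries, with none of the 6 called. The part that any of these cell types and tissues has in the values of the 10 genes was not tested.

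**Figure D5:**
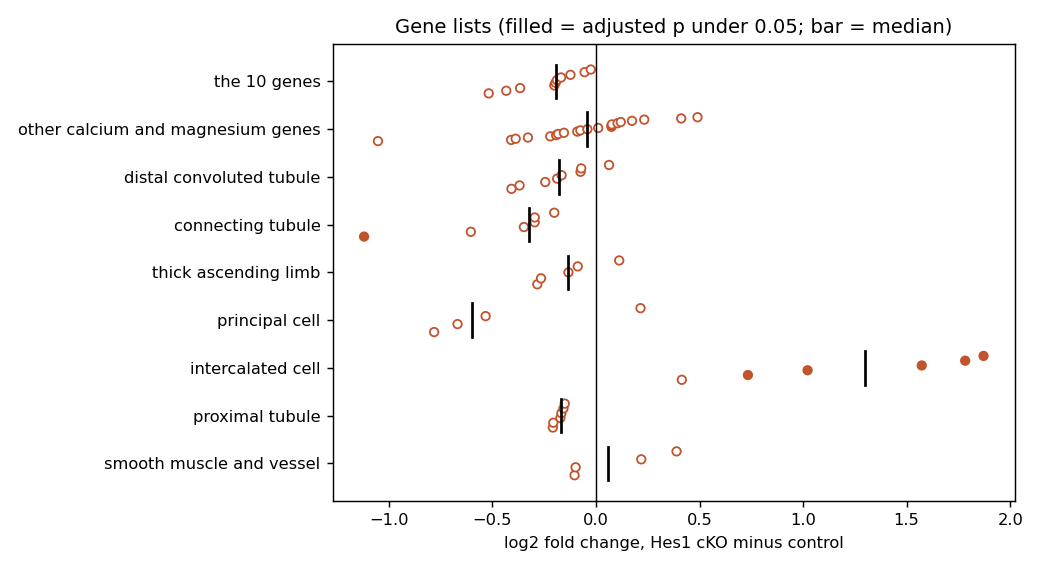
Log2 fold change (Hes1 cKO minus control) of every tested gene in the 10 described genes and in 8 lists, with the list median as a bar and filled points for genes called by edgeR. The 10 genes lie between -0.52 and -0.025 with no filled point, and 5 intercalated cell markers and Hsd11b2 are filled.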

How the data were processed

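Per the submitters' processing notes, reads were checked with FastQC and aligned with STAR to mm10 (GRCm38), and DESeq2 was also named. The authors deposited whole-number counts per gene without normalization; which program counted them, with which strand setting and annotation, was not stated in these notes. Another table holds 9 columns whose names show no genotype, and these were not used in any step. The 10 genes and all lists were chosen with earlier results of these data known.

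Genes were filtered by filterByExpr (minimum count 10), scaled by TMM and tested by edgeR 4.0.16 (R 4.3.3) with the quasi-likelihood test, without covariates, 3 libraries against 4. P-values were adjusted by Benjamini-Hochberg across the 15615 genes tested, with calls at an adjusted p under 0.05. Standard errors and 95% intervals came from the F statistic. Single genes were also tested by an exact two-sided permutation test on log2(CPM + 1) over 35 splits. Tested on simulated counts of 15615 genes for this comparison, edgeR recovered 63 of 91 genes changed 2-fold and 96 of 109 changed 4-fold, with 6 false calls among 165. Exon lengths and coordinates came from GENCODE M21 (GRCm38). DESeq2 1.42.0 and limma 3.58.1 gave alternatives, with other scalings, filters, an Xist covariate and libraries left out in turn. Genes of the lists that are named here were drawn from the called genes of each list and up to 4 with the smallest p. Not all genes that met this rule are named. Ckm, Tnnt3, Acta1, Myh4, Cyp24a1 and Cyp27b1 were on the lists as written, but were named outside this rule after values were seen. The ratios were also added after values were seen. For likeness of profiles, the 3 nearest genes were named for each of 5 of the 10, among genes whose CPM averaged 5 or more.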

Additional observations from a re-analysis of the deposited data

How the results depend on the processing

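None of the 10 genes was called under any of the 14 alternatives, with a smallest adjusted p of 0.593 (S100g, edgeR with no filter on low counts). For 8 of them the log2 fold change stayed below 0 in all 14. When a library was left out, Trpm7 ranged from -0.091 to 0.031 and Atp2b1 from -0.11 to 0.022, so their sign is not settled; the cause was not tested. The median of the 10 ranged from -0.24 (without Hes1 cKO 3) to -0.10 (without Hes1 cKO 2). The count of called genes over the whole table was 53, and became 102 without a filter on low counts and 127 by DESeq2's Wald test. With a library left out it ranged from 25 (without Hes1 cKO 2) to 47 (without control 2), and it was 27 without Hes1 cKO 1. No paired analysis was possible because the library names of the groups share no replicate number. Reads carry no molecular identifiers, so the counting errors given are the least they can be.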

Other observations

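Cyp24a1, which degrades active vitamin D and is a known target of Vdr, was not called (log2 fold change -1.05, SE 0.94, edgeR adjusted p 0.962) but spanned a 21.9-fold range between libraries. It was singled out after its values were seen. It was at 2.22, 2.03 and 26.4 CPM in Hes1 cKO 1, 2 and 3, and at 4.47, 22.1, 44.4 and 12.9 CPM in control 1, 2, 3 and 4. Both groups held low and high libraries. Cyp27b1, the enzyme that makes active vitamin D, was at 4.23, 16.3 and 12.6 CPM in Hes1 cKO 1, 2 and 3, and at 24.9, 8.21, 14.7 and 10.9 CPM in control 1, 2, 3 and 4. The levels of Cyp24a1 and of each of the 10 genes were compared over the 7 libraries on the log2(CPM + 1) scale, 10 relations in all. For Calb1, Pearson's r was 0.79 (exact permutation p 0.0187, adjusted 0.145) and Spearman's rho 0.79 (p 0.0480, adjusted 0.160). For Slc8a1, r was 0.74 (exact permutation p 0.0290, adjusted 0.145) and rho 0.82 (p 0.0341, adjusted 0.160). For Trpm6, r was 0.72 (exact permutation p 0.0768, adjusted 0.192) and rho 0.82 (p 0.0341, adjusted 0.160). For Trpv5, r was 0.74 (exact permutation p 0.0643, adjusted 0.192) and rho 0.71 (p 0.0881, adjusted 0.220). For S100g, r was 0.64 and rho 0.46. For Trpm7, Atp2b1 and Cnnm2, r was 0.23, 0.33 and -0.023. For Slc12a3, read beside the 10 genes, r was 0.48. None of the 10 relations passed adjustment. Without Hes1 cKO 1 and Hes1 cKO 2, the libraries farthest from the median of Cyp24a1, r was 0.73 for Calb1 and 0.76 for Slc8a1. It was 0.43 for Trpm6, 0.88 for Trpv5 and 0.56 for S100g. For Vdr r was 0.26 over all 7 and -0.51 without those libraries, and for Pvalb it was -0.55 and -0.84. With each group centred on its own mean, over all 7, r was 0.72 for Calb1, 0.68 for Slc8a1 and 0.66 for Trpm6. By the same centring it was 0.69 for Trpv5, 0.51 for S100g, -0.00013 for Vdr and -0.93 for Pvalb. The values without Hes1 cKO 1 and Hes1 cKO 2, and those after centring, were not tested. A relation over 7 libraries of 2 genotypes is a description of these libraries.

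Ratios within a library were read for 4 pairs chosen after values were seen. The ratio of S100g to Calb1 in Hes1 cKO was 0.993 ± 0.243 (SD, n = 3), and in control 0.983 ± 0.0519 (SD, n = 4). Trpm6 relative to Slc12a3 was 0.0140 ± 0.00306 and 0.0143 ± 0.00230. Trpv5 relative to Calb1 was 0.0520 ± 0.00987 and 0.0443 ± 0.00356, and Pvalb relative to Slc12a3 was 0.0217 ± 0.00894 and 0.0288 ± 0.0129. None of the 4 passed the exact permutation test (smallest p 0.200, adjusted 0.800). The S100g to Calb1 ratio was 1.23 in Hes1 cKO 2 and 0.742 in Hes1 cKO 3, outside the control range of 0.918 to 1.04.

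Genes with the most similar profile over the 7 libraries were sought by the mean absolute difference of log2(CPM + 1), each profile centred on its own mean, among 11215 other genes. The nearest to Calb1 was Slc8a1 (0.13), followed by Aldh1b1 and S100g (both 0.14). The nearest to S100g were Cstb (0.080), Insig1 (0.11) and Trpv5 (0.12), and to Trpv5 were Slc6a20a (0.054), Fgfr1op (0.070) and the calcium pump gene Atp2b4 (0.076). In nearness to Trpv5, Slc8a1 ranked 68, S100g 83 and Calb1 594. In nearness to S100g, Calb1 ranked 9 and Slc8a1 60, and Trpv5 ranked 6 in nearness to Calb1. The nearest to Trpm6 were Mrpl15 (0.054), Tmem35 (0.070) and Ndufa3 (0.074). The nearest to Pvalb were Angptl4 (0.20), Pdgfra (0.22) and Cck (0.22), while Trpm6, Trpv5, Calb1, S100g and Slc8a1 lay 0.58 to 0.70 from it.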
